A study of Citrus x limon with 9 samples.

Results

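The onset of a floral inductive water deficit in lemon buds is described here as the change in gene expression between stage 2 and stage 1. Stage 2 was 1 week after the water deficit treatment began, and stage 1 was 1 week ahead of the treatment. These stages account for 6 of the 9 RNA sequencing libraries of the study, 3 at stage 2 and 3 at stage 1, chosen by their labels. The other 3 libraries, taken after re-watering, entered the filter on low values and the estimate of the spread between replicates. All trees were lemon (Citrus x limon) of the cultivar Femminello, grafted on trifoliate orange and grown in pots in a greenhouse under natural day length. Stage 2 trees stood in soil that had been left to dry to a set moisture and was then held there by measured watering, whereas stage 1 trees were watered to saturation at regular intervals. RNA came from the terminal bud and the 5 buds that follow it, pooled from a separate group of trees for each replicate, so that p-values measure the spread between groups of trees. The stages differ in calendar date as well as in soil water, and no library from trees watered throughout was analysed here, so that water deficit, date and bud age cannot be told apart. The hour at which buds were cut is not given in the sources used here, which bears on every gene with a daily rhythm.

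Plants that lose water close their stomata and accumulate abscisic acid, the hormone that switches on much of the drought response, while cell expansion, which depends on turgor, slows early. In citrus, water deficit can replace winter cold as a signal for flowering. The circadian clock, a network of proteins such as LHY, GIGANTEA and the pseudo-response regulators that repress one another in turn over the day, feeds into the CONSTANS family and into FLOWERING LOCUS T (FT), the mobile flowering signal of the phosphatidylethanolamine-binding protein (PEBP) family.

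The values were FPKM, read counts scaled to transcript length and to the size of the library, for 22353 genes of the sweet orange genome, of which 21947 were above 0 in at least 1 of the 6 libraries. FPKM sums ranged between 631242 and 636025 at stage 2 and between 625348 and 631786 at stage 1. Fewer genes were above 0 at stage 2 (19210 to 19579) than at stage 1 (19956 to 20099), and the 20 most abundant genes took 10.3 to 10.7% of all FPKM at stage 2 and 12 to 12.1% at stage 1. One read was worth about the same FPKM in 5 of the 6 libraries and 1.08 times as much in stage 2 replicate 3, judged by the steps between the values of low genes, so that this library was slightly shallower; total read counts per library were not used here. Correlations of log2(FPKM + 1) across genes were 0.97 to 0.98 within a stage and 0.93 to 0.94 between the stages; genes are not independent replicates, and these values are a description. Stage 2 replicate 3 correlated least with the others.

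A gene was called when its adjusted p from limma was under 0.05 and its log2 fold change, stage 2 minus stage 1 on the log2(FPKM + 1) scale, was at least 1 in size. Of 17729 genes tested, 564 (3.18%) were called higher and 827 (4.66%) were called lower at stage 2, and the median log2 fold change of all tested genes was 0.05. These shares are the background against which each count below is to be read. The 3 stage 2 libraries did not overlap with the 3 stage 1 libraries for 555 of the 564 and for 816 of the 827. Genes called on these same libraries tend to be separated, and the share over all tested genes is not given here. These 2 counts are therefore no separate support for the calls. Large changes were few: 99 rises and 103 falls reached a log2 fold change of 2, and 21 rises and 18 falls reached 3. Without the fold threshold, 3761 genes (21.2%) were higher and 3039 (17.1%) lower. The median level of the genes called lower was 2.71 FPKM at stage 2 and 9.54 FPKM at stage 1, and that of the genes called higher was 18.7 FPKM at stage 2 and 5.69 FPKM at stage 1. In a sample of whole buds, fewer cells of a type and less RNA per cell cannot be told apart.

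**Figure D1:**
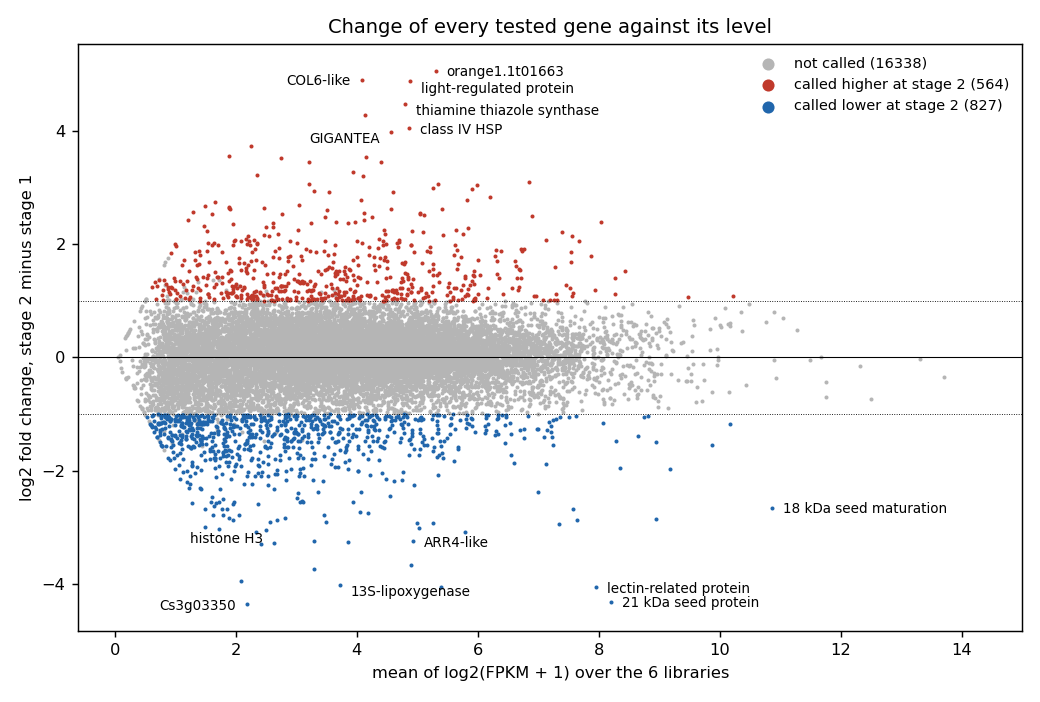
Log2 fold change (stage 2 minus stage 1, log2(FPKM + 1) scale) of the 17729 tested genes against the mean log2(FPKM + 1) of the 6 libraries; red points are the 564 genes called higher at stage 2, blue points the 827 called lower and grey points the 16338 not called, and dotted lines mark the fold threshold of 1. The largest rises were of genes at moderate levels, among them COL6-like and GIGANTEA, whereas 3 of the labelled falls (seed-type and lectin proteins) were of abundant transcripts.

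Primer pairs that the study designed for real-time PCR identify the transcripts of 5 genes on which the account below turns; they are written 5′ to 3′, sense primer first, as the only sequences of these genes in the sources used here. The first 3 genes were higher at stage 2 and the last 2 were lower.
Cs8g20740 (COL6-like), sense: ggaaggcatttggcgtgt
Cs8g20740 (COL6-like), antisense: gatttgctgctcctctctctca
Cs3g21790 (GIGANTEA), sense: cagcttgtagaacttcttcggg
Cs3g21790 (GIGANTEA), antisense: accccgattgcacgcaaa
Cs7g03390 (uncharacterized), sense: ggtccacaagaaccccatc
Cs7g03390 (uncharacterized), antisense: aagaaagcgaagaagccga
orange1.1t02265 (SPL9), sense: cgtctcaacagagtaggcaaca
orange1.1t02265 (SPL9), antisense: cggcacttagagggaccaat
Cs2g06960 (MFT), sense: tcaatcagaagggtaaagtg
Cs2g06960 (MFT), antisense: catcaggctactcaataaca

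Clock and day length genes held some of the largest rises. GIGANTEA (Cs3g21790), a clock protein that promotes CONSTANS expression in Arabidopsis, stood at 87.3, 91.3 and 101 FPKM in the stage 2 libraries, against 5.64, 4.97 and 4.21 FPKM in the stage 1 libraries. The log2 fold change was 3.99 (SE 0.10, adjusted p = 3.5e-10). The pseudo-response regulator APRR7-like (Cs6g03960), a repressor of the morning genes, was at 47.0, 45.7 and 47.5 FPKM at stage 2 and at 9.03, 9.03 and 9.10 FPKM at stage 1, a log2 fold change of 2.25 (SE 0.08, adjusted p = 3.4e-09). These were the only 2 of the 10 tested members of the clock list that were called, both higher. The list's median was 0.29. LHY (orange1.1t00580), a morning repressor of the clock, had 568, 601 and 623 FPKM at stage 2, against 1040, 1026 and 1011 FPKM at stage 1. Its libraries did not overlap, but the log2 fold change of -0.78 (SE 0.04, adjusted p = 1.2e-07) was under the fold threshold. Cs7g31110, which the study names EARLY FLOWERING 4 (a member of the evening complex) but whose protein match carries no function and which is outside the list, had a log2 fold change of 0.76 and also missed the threshold. The EARLY FLOWERING 3-like genes Cs1g19130 and Cs4g18880 had log2 fold changes of 0.52 (adjusted p = 0.0055) and 0.25 (adjusted p = 0.033), and APRR1-like (orange1.1t04712) and TIME FOR COFFEE-like (Cs9g06630) had 0.03 and 0.04, with adjusted p of 0.83 and 0.56. The 3 ELF4-like genes of the list (Cs2g12095, Cs1g17650 and Cs8g20200) had log2 fold changes of 0.16, 0.32 and 0.40.

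The KEGG entry that APRR7-like carries, K12129, was looked up after its values were seen. It also holds CONSTANS-like and GATA genes, and 4 of its 10 tested genes were called higher and 0 lower, with a median of 0.75. Among them, the pseudo-response regulator PRR95-like (orange1.1t00571) had 46.5, 44.4 and 49.7 FPKM at stage 2 and 4.60, 3.70 and 3.64 FPKM at stage 1, a log2 fold change of 3.27 (SE 0.11, adjusted p = 2.9e-09). Cs8g17520, whose best protein match carries no function, had 115, 115 and 122 FPKM at stage 2, against 15.04, 11.5 and 12.9 FPKM at stage 1, a log2 fold change of 3.07. The pseudo-response regulator PRR37-like (Cs7g27910) had 2.84, 2.67 and 2.86 FPKM at stage 2, against 1.83, 2.48 and 2.28 FPKM at stage 1, and was not called (log2 fold change 0.25, adjusted p = 0.28). The fourth gene called was COL6-like, described next.

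The CONSTANS-like family, B-box zinc finger proteins that read day length, moved in both directions. COL6-like (Cs8g20740) had 89.7, 95.5 and 89.9 FPKM at stage 2 and 1.81, 2.75 and 1.79 FPKM at stage 1, a log2 fold change of 4.91 (SE 0.14, adjusted p = 8.8e-10), larger than any other rise but that of orange1.1t01663. COL16-like (Cs2g12490) also rose, with 118, 128 and 130 FPKM at stage 2, against 25.4, 25.1 and 24.2 FPKM at stage 1, a log2 fold change of 2.28. COL2-like (Cs6g19280) fell to 92.1, 89.6 and 92.7 FPKM at stage 2, against 250, 235 and 247 FPKM at stage 1, a log2 fold change of -1.41 (SE 0.05, adjusted p = 4.2e-09). The other 5 of the 8 tested members were not called, and the median was 0.17. All 3 cyclic DOF factors, which repress CONSTANS and FT in Arabidopsis and are removed there with the help of GIGANTEA, fell: Cs7g03670 by 1.38, Cs6g21400 by 1.28 and Cs5g10770 by 1.09 on the log2 scale. Of these the most abundant was Cs6g21400, with 40.9, 43.5 and 48.6 FPKM at stage 2, against 109, 109 and 108 FPKM at stage 1.

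**Figure D2:**
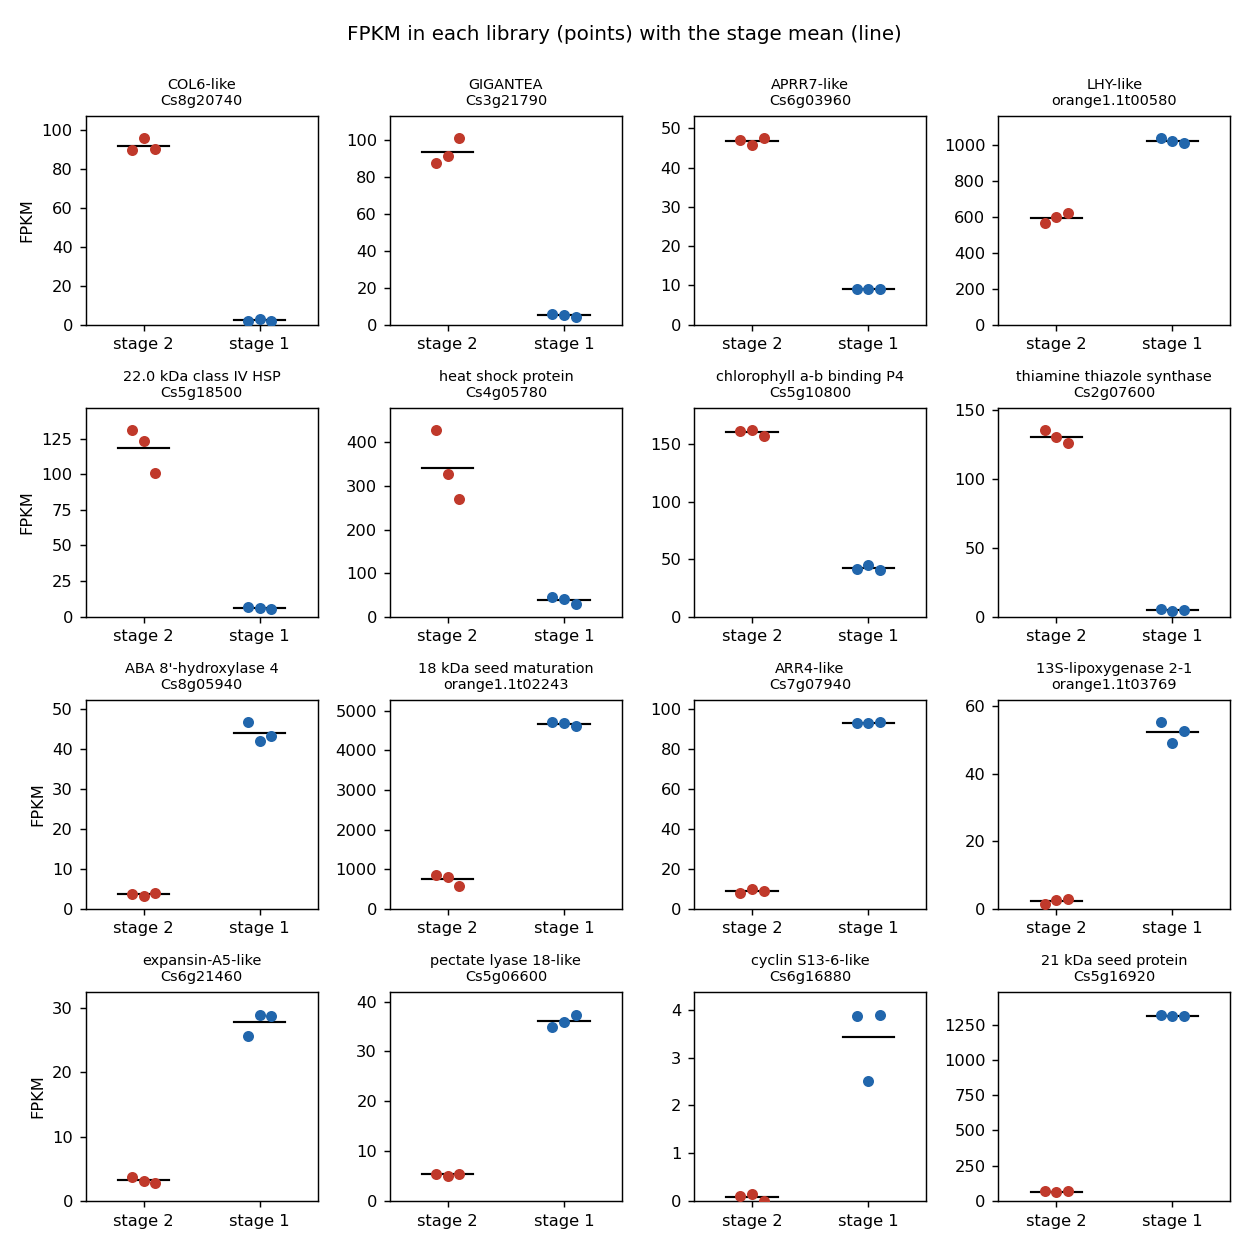
FPKM in each library of 16 named genes, on linear axes that start at 0; points are the 3 libraries of each stage, stage 2 left of stage 1, and lines mark the mean. In each panel the 3 stage 2 libraries lie wholly above or wholly below the 3 stage 1 libraries. Several of these genes were named under a rule that required this. Examples are GIGANTEA at 87.3 to 101 FPKM against 4.21 to 5.64 FPKM, and the ARR4-like regulator at 8.03 to 9.96 FPKM against 93.0 to 93.2 FPKM.

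Genes of the chloroplast and of light harvesting held several rises. A light-regulated protein-like gene (Cs2g14490) had 148, 161 and 171 FPKM at stage 2, against 4.69, 3.48 and 5.22 FPKM at stage 1, a log2 fold change of 4.89 (SE 0.14, adjusted p = 7.4e-10). Thiamine thiazole synthase 2 (Cs2g07600), which makes the thiazole ring of vitamin B1 in the chloroplast, had 135, 130 and 126 FPKM at stage 2 and 5.81, 4.36 and 4.63 FPKM at stage 1, a log2 fold change of 4.48. Of 15 tested photosystem and light-harvesting genes, 4 rose (26.7%) and 0 fell, and the median was 0.71. With median scaling or quantile normalization the number of rises was 3. The antenna protein CP24 (orange1.1t03504) was at 435, 424 and 382 FPKM at stage 2 and at 96.3, 98.6 and 101 FPKM at stage 1, a log2 fold change of 2.06. Chlorophyll a-b binding protein P4 (Cs5g10800) rose by 1.89, and the abundant protein 3C (Cs2g03780) by 1.09 with 1939, 1893 and 1419 FPKM at stage 2, against 769, 857 and 810 FPKM at stage 1. Summed over the list, these green tissue markers stood at 4465 to 5378 FPKM at stage 2 and at 2870 to 2991 FPKM at stage 1; what part of each rise goes with a larger share of green tissue in the sampled buds was not tested.

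Chlorophyll synthesis did not move as a block. Protochlorophyllide reductase (Cs1g06850), the light-dependent step, rose by 1.79 on the log2 scale, with 432, 422 and 448 FPKM at stage 2, against 123, 124 and 127 FPKM at stage 1. ChlH (Cs9g13460), the large subunit of magnesium chelatase, fell by 1.26, with 67.0, 68.3 and 72.8 FPKM at stage 2, against 173, 167 and 162 FPKM at stage 1. The other 6 tested genes of the list were not called. In the GO annotation, generation of precursor metabolites and energy had 9 of 36 tested genes called higher (25.0%), 0 called lower and a median of 0.42.

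Heat shock proteins and other chaperones, which keep proteins from clumping, held more rises than any other of the 46 function lists. Of 89 tested genes, 19 rose (21.3%, against 3.18% of all genes) and 0 fell, and the median was 0.30. The class IV heat shock protein-like gene (Cs5g18500) had 131, 124 and 101 FPKM at stage 2, against 7.03, 6.28 and 5.30 FPKM at stage 1, a log2 fold change of 4.05 (SE 0.12, adjusted p = 1.1e-09). Cs4g05780, a small heat shock protein, had 428, 328 and 271 FPKM at stage 2 and 44.2, 41.1 and 30.1 FPKM at stage 1, a log2 fold change of 3.11. A dnaJ homolog of subfamily B (Cs3g14930), a co-chaperone of Hsp70, had 112, 116 and 94.7 FPKM at stage 2, against 11.6, 12.7 and 13.3 FPKM at stage 1, a log2 fold change of 3.00. Rises were spread over chaperone classes, as further members show that were chosen after their values were seen: the dnaJ homolog Cs1g16820 rose by 2.92, the Hsp90-type protein Cs5g03150 by 2.39, a mitochondrial small heat shock protein (Cs9g14690) by 2.07, an Hsp70 (orange1.1t04990) by 1.58 and the disaggregase ClpB1 (Cs5g11720) by 1.34. The summed level of the list was 6893 to 7050 FPKM at stage 2 and 4451 to 4541 FPKM at stage 1. The heat stress transcription factors, which switch these genes on, gave 0 calls among 11 tested genes; by adjusted p alone 4 were higher and 1 lower, and log2 fold changes lay between -0.98 and 0.48. Small heat shock proteins are a multigene family with near-identical copies, between which reads may have been split. Greenhouse temperature on the sampling days was not analysed here.

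The KEGG column added chaperone genes that the words of the protein matches had missed. K13993, the entry of the small heat shock proteins, had 19 of 36 tested genes called higher (52.8%), 0 lower and a median of 1.16, the largest share called higher of the 371 entries with at least 15 tested genes. Of these 19, 8 were in the chaperone list and 11 were not, and 10 of those 11 were matched to proteins without a functional name. As examples chosen after their values were seen, Cs8g18020 averaged 80 FPKM at stage 2 and 12.7 FPKM at stage 1 (log2 fold change 2.54), and Cs8g19530 averaged 284 FPKM at stage 2 and 49.2 FPKM at stage 1 (log2 fold change 2.5). K03686, an entry of dnaJ-type genes, had 6 of 28 called higher and 0 lower, and 5 of the 6 were outside the list.

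Genes named for protection against drying gave falls and no rise. Of 10 tested late embryogenesis abundant (LEA) proteins and dehydrins, hydrophilic proteins that accumulate in seeds and dried tissue, 0 rose and 5 fell (50%, against 4.66% of all genes), with a median of -1.05. The 18 kDa seed maturation protein-like gene (orange1.1t02243), the fifth most abundant transcript at stage 1, had 855, 807 and 579 FPKM at stage 2, against 4701, 4694 and 4611 FPKM at stage 1, a log2 fold change of -2.66 (SE 0.11, adjusted p = 1.9e-08). An 11 kDa LEA gene (orange1.1t02242) fell by 2.37, with 53.4, 68.1 and 45.1 FPKM at stage 2, against 281, 295 and 289 FPKM at stage 1, and LEA protein 2-like (Cs1g13160) fell by 2.78 at low levels. Lea5 (Cs9g04210) had a log2 fold change of 0.49 (adjusted p = 0.023) and was not called, with 3006, 3272 and 2549 FPKM at stage 2 and 1951, 2196 and 2121 FPKM at stage 1. A dehydrin (Cs3g26970) had a log2 fold change of -0.57 and was not called either. Lea5 and the dehydrin were picked after their values were seen.

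Among genes that make compatible solutes, 2 of 20 tested genes rose and 4 fell, with a median of -0.37. A raffinose synthase-type gene (galactinol-sucrose galactosyltransferase, Cs4g07840) rose by 1.08, with 18.5, 20.5 and 25.7 FPKM at stage 2, against 9.29, 10.4 and 9.17 FPKM at stage 1; without stage 2 replicate 3 its change was 0.95 and it was not called. Its paralog Cs2g27610 fell by 1.35. A trehalose-phosphate synthase (Cs5g05200) rose by 1.18, whereas a trehalose-phosphate phosphatase (Cs5g09200) and a stachyose synthase (orange1.1t01707) fell by 1.23 each. Aquaporins, the water channels, gave 0 calls among 11 tested genes, with a median of -0.42 and 5 members lower by adjusted p alone. Through the KEGG entry K09872, an aquaporin entry looked up after values were seen, 2 of 12 tested genes fell, both without a functional name: Cs6g07970 had 8.63, 11.8 and 11.6 FPKM at stage 2, against 90.6, 88.7 and 80.8 FPKM at stage 1 (log2 fold change -2.92), and Cs7g25610 fell by 1.89. Starch metabolism gave 0 calls among 20 tested genes, and its summed level was 1248 to 1295 FPKM at stage 2 and 1720 to 1731 FPKM at stage 1. Sucrose metabolism and sugar transport gave 1 rise (the ERD6-like transporter Cs3g24900, 1.00) and 1 fall (the sucrose-phosphate synthase orange1.1t03668, -1.01) among 22 tested genes. Both lay at the threshold: without stage 2 replicate 3 they were at 0.95 and -0.92, without stage 1 replicate 1 the synthase was at -0.95, and neither was then called; without stage 1 replicate 2 the transporter lost its call as well. The transporter was not called after quantile normalization (0.96) or median scaling (0.93) either, which left 0 rises in the list.

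For abscisic acid, the calls were on breakdown and signalling. Abscisic acid 8'-hydroxylase 4-like (Cs8g05940), an enzyme that starts the breakdown of the hormone, had 3.68, 3.33 and 4.07 FPKM at stage 2, against 46.7, 42.1 and 43.3 FPKM at stage 1, a log2 fold change of -3.26 (SE 0.10, adjusted p = 1.3e-09). The related 8'-hydroxylase 1-like (Cs6g19380) fell by 1.22, with 5.99, 6.71 and 7.27 FPKM at stage 2, against 17.6, 17.2 and 15.8 FPKM at stage 1. The receptor PYL2-like (Cs1g18470) rose by 1.34, with 6.62, 7.85 and 12.97 FPKM at stage 2, against 2.94, 2.81 and 2.88 FPKM at stage 1. ABSCISIC ACID-INSENSITIVE 5-like (Cs6g14970), a transcription factor known from seeds, fell by 1.26 (adjusted p = 0.019) at 0.74 to 2.77 FPKM against 3.43 to 5.13 FPKM. It lost its call without stage 2 replicate 2 (-1.06), stage 2 replicate 3 (-1.09), stage 1 replicate 1 (-1.19) or stage 1 replicate 3 (-1.18). The remaining 19 of 23 tested genes, synthesis genes among them, were not called, and the median was 0.11.

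Cytokinin genes changed at both ends of the pathway. The synthesis enzyme adenylate isopentenyltransferase 3 (Cs5g31590) rose, with 40.7, 42.2 and 42.5 FPKM at stage 2, against 9.30, 9.93 and 8.05 FPKM at stage 1, a log2 fold change of 2.09 (SE 0.10, adjusted p = 4.6e-08). The type-A response regulators, which cytokinin induces and which dampen its signal, fell. ARR4-like (Cs7g07940) had 8.03, 9.96 and 8.71 FPKM at stage 2, against 93.0, 93.1 and 93.2 FPKM at stage 1, a log2 fold change of -3.25 (SE 0.09, adjusted p = 5.2e-10). ARR15-like (Cs5g04810) had 10.2, 10.3 and 11.1 FPKM at stage 2, against 86.8, 91.8 and 97.7 FPKM at stage 1, a log2 fold change of -3.02. ARR9-like (orange1.1t01850) fell by 2.73. In all, 1 of 24 tested cytokinin genes rose and 6 fell (25.0%), with a median of -0.22. The receptor-like histidine kinase 4 (Cs2g17860), named after its value was seen, fell by 2.18. In the KEGG entry of the type-A regulators, K14492, 5 of 6 tested genes fell and the median was -2.60; the entry was chosen after its values were seen.

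Jasmonate genes were called in 1 direction only: 6 of 18 tested genes fell (33.3%) and 0 rose, with a median of -0.38. Linoleate 13S-lipoxygenase 2-1 (orange1.1t03769), which oxidises fatty acids at the start of jasmonate synthesis, had 1.46, 2.57 and 2.95 FPKM at stage 2, against 55.2, 49.2 and 52.6 FPKM at stage 1, a log2 fold change of -4.03 (SE 0.16, adjusted p = 7.4e-09). The gene orange1.1t03774, which has the same KEGG entry (K00454) and a close identifier but no functional match, fell by 3.74, and reads may be shared between such copies. The repressors TIFY 5A-like (Cs2g03240) and TIFY 10A-like (Cs1g17210), which jasmonate itself induces, fell by 2.39 and 1.62.

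Auxin, gibberellin and ethylene genes were mixed. For auxin, 2 of 44 tested genes rose and 4 fell: the efflux carrier Cs6g17000 fell by 2.10, the conjugating GH3.1-type gene Cs8g04610 fell by 1.37 and the influx carrier-like gene Cs8g02900 fell by 1.33, whereas another influx carrier-like gene, Cs3g19250, rose by 1.30 and auxin-induced 6B-like (orange1.1t04220) by 1.11, which was 0.96 and not called without stage 1 replicate 3. Gibberellin-regulated proteins, small cysteine-rich proteins, split. Cs3g26100 rose by 1.61, with 193, 181 and 144 FPKM at stage 2, against 50.7, 54.4 and 61.9 FPKM at stage 1, and Cs6g20220 rose by 1.22. Cs6g21260 and Cs6g17190 fell by 2.01 and 1.70 at lower levels. These were all 4 calls among 13 tested gibberellin genes. Of 59 tested genes of the ethylene list, 2 rose and 8 fell (13.6%). ERF003-like (Cs7g06120) fell by 3.08, with 0.51, 0.26 and 1.71 FPKM at stage 2, against 12.1, 17.0 and 12.2 FPKM at stage 1. DREB1D-like (Cs6g15360), which fell by 1.51, is named for dehydration-responsive element binding and not for ethylene. ERF036-like (Cs1g15510) fell by 1.36, and ABR1-like (Cs3g21660) rose by 1.27. The other rise of that list, Cs3g22800 (1.67), is a carboxymethylenebutenolidase homolog that the word search caught. Brassinosteroid genes gave 0 calls among 8.

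Genes that loosen or remodel the cell wall were called in 1 direction only. Of 15 tested expansins and xyloglucan endotransglucosylases, which let the wall yield to turgor, 6 fell (40.0%) and 0 rose, with a median of -0.60. Expansin-A5-like (Cs6g21460) had 3.79, 3.05 and 2.76 FPKM at stage 2, against 25.7, 28.9 and 28.7 FPKM at stage 1, a log2 fold change of -2.78 (SE 0.16, adjusted p = 1.5e-07). Expansin-A1-like (Cs5g10820) fell by 2.87 and expansin-A4-like (Cs6g06530) by 1.82. Pectin genes gave 6 falls and 0 rises among 38 (15.8% lower). Their median was only -0.1, and by adjusted p alone 6 were higher and 10 lower. Pectate lyase 18-like (Cs5g06600), which cuts pectin, had 5.49, 5.05 and 5.39 FPKM at stage 2, against 34.8, 35.9 and 37.4 FPKM at stage 1, a log2 fold change of -2.55 (SE 0.09, adjusted p = 3.1e-09), and the polygalacturonase subunits Cs7g08620 and Cs5g05320 fell by 1.92 and 1.80. By KEGG, the pectate lyase entry K01728, chosen after its values were seen, had 6 of 9 tested genes lower and a median of -1.65.

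Wall building gave mostly falls. Among 57 tested genes of cellulose and lignin deposition, 9 fell (15.8%) and 1 rose. The riser was cellulose synthase subunit 8 (Cs9g08750), known from secondary walls in Arabidopsis, with 64.5, 72.5 and 80.2 FPKM at stage 2, against 16.8, 14.6 and 13.3 FPKM at stage 1, a log2 fold change of 2.21 (SE 0.10, adjusted p = 3.4e-08). As further genes named after their values were seen, Cs2g04590, also matched to subunit 8, had a log2 fold change of -0.98 and was not called. Cs4g01990, matched to subunit 7, had -1.2 and was called lower. Fasciclin-like arabinogalactan proteins Cs6g13410 and Cs6g04310 fell by 1.49 and 1.48, and COBRA-like 7 (Cs9g02720) fell by 1.42. In the GO annotation, cellulose synthase activity had 6 of 15 tested genes lower (40.0%), 0 higher and a median of -0.73. This entry is wider than its name and does not hold the riser Cs9g08750. Its falls include genes matched to xyloglucan glycosyltransferases (Cs2g28730 and Cs3g16380) and a glucomannan mannosyltransferase (Cs7g18460). Cell wall organization had 4 of 16 lower and 0 higher.

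Genes of cell division and DNA replication gave mostly falls. Of 81 tested cyclin, cyclin-dependent kinase and mitosis genes, 12 fell (14.8%) and 1 rose, with a median of -0.12. The mitotic cyclin S13-6-like (Cs6g16880) had 0.11, 0.14 and 0 FPKM at stage 2, against 3.86, 2.51 and 3.90 FPKM at stage 1, a log2 fold change of -2.02 (SE 0.26, adjusted p = 9.5e-05). Cyclin-B2-3-like (Cs8g01560) fell by 1.37 and cyclin-D3-1-like (Cs8g05170), which drives entry into the cycle, by 1.74. The KEGG entry of B-type cyclins, K05868, chosen after its values were seen, had 4 of 5 tested genes lower and a median of -1.35. The riser, the kinesin-like gene Cs6g06320, stood at 304, 301 and 224 FPKM at stage 2 and at 107, 113 and 116 FPKM at stage 1, a level well above that of the cyclins. Of 30 tested histone and replication genes, 6 fell (20%) and 0 rose, with a median of -0.38. A histone H3 (Cs1g20090) had 1.09, 1.52 and 0.48 FPKM at stage 2, against 17.3, 19.4 and 17.98 FPKM at stage 1, a log2 fold change of -3.28, and the replication licensing factors mcm2 (Cs5g21760) and mcm5 (Cs4g01350) fell by 1.28 and 1.27. Histone copies are near-identical, and reads may have been split between them. Cytosolic ribosomal proteins gave 0 calls among 52, with a median of 0.14.

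**Figure D3:**
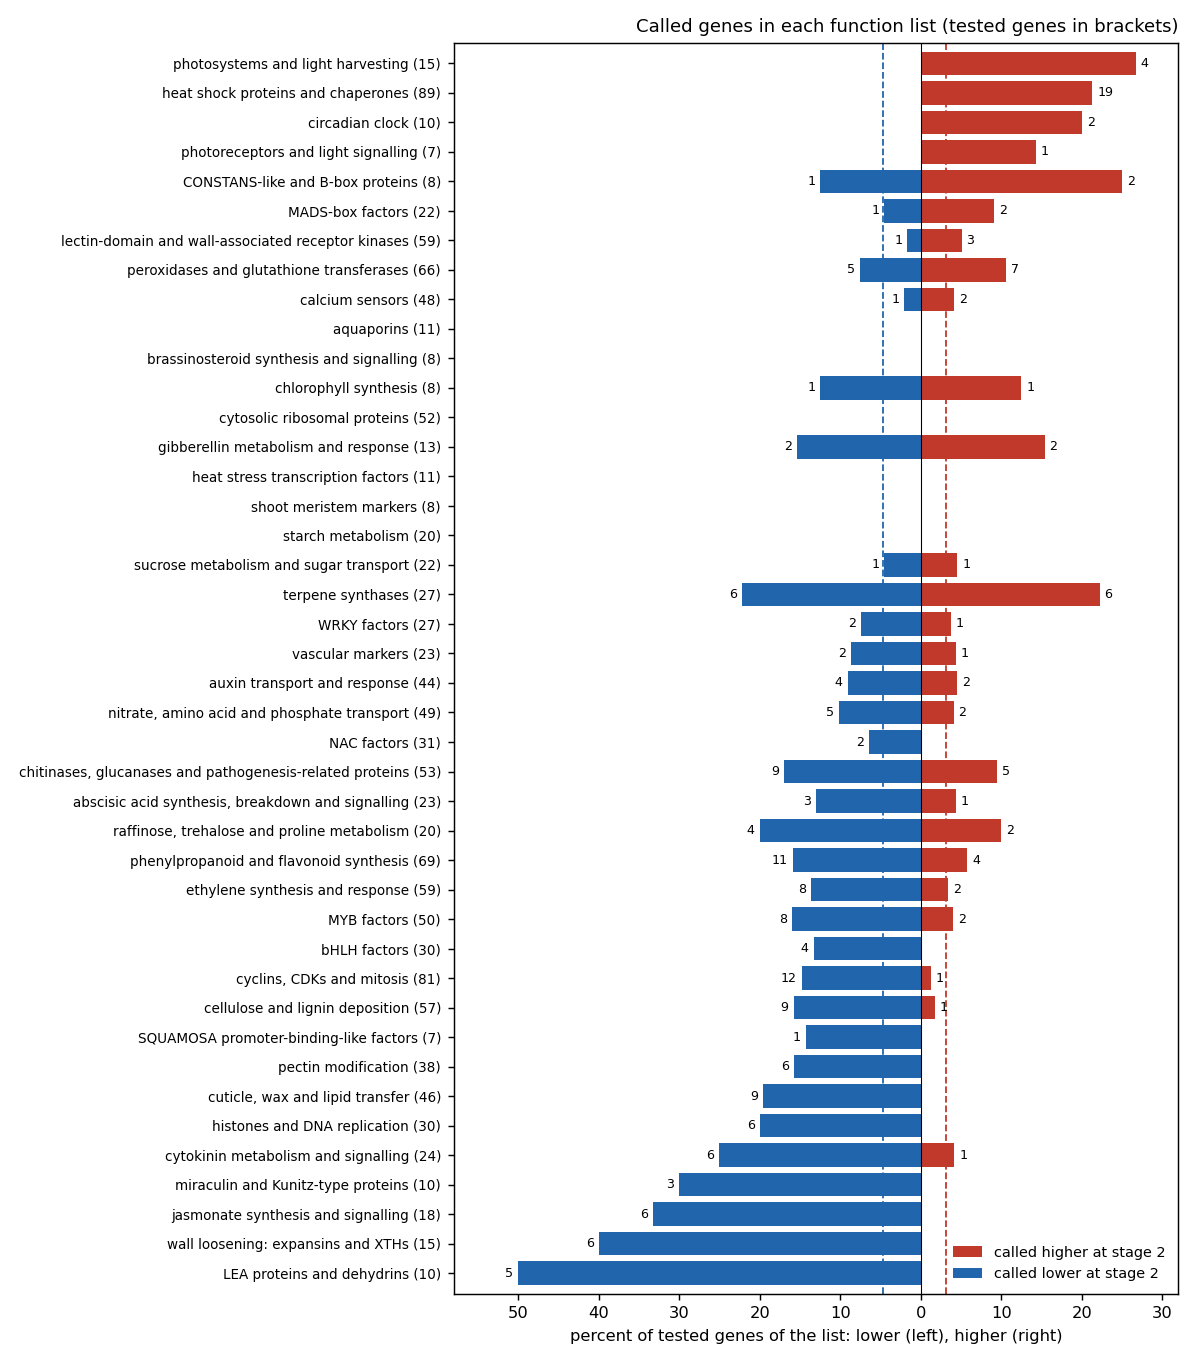
Percent of tested members called higher (red, to the right) and lower (blue, to the left) at stage 2 in the function lists with at least 7 tested members; the numbers at the bars are counts of genes, and dashed lines mark the shares over all tested genes, 3.18% higher and 4.66% lower. Heat shock proteins and chaperones (19 higher, 0 lower) and photosystems (4 higher, 0 lower) reach well past the dashed line on the right with no bar on the left, CONSTANS-like genes (2 higher, 1 lower) and terpene synthases (6 higher, 6 lower) reach past it on both sides, and LEA proteins (5 lower), expansins and XTHs (6 lower) and jasmonate genes (6 lower) reach farthest to the left.

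Several of the largest falls were of abundant proteins of the kind stored or used in defence. The 21 kDa seed protein-like gene Cs5g16920, a Kunitz-type protein, had 67.4, 59.9 and 68.0 FPKM at stage 2, against 1321, 1310 and 1309.7 FPKM at stage 1, a log2 fold change of -4.32 (SE 0.06, adjusted p = 2.5e-12). A second copy, Cs5g16850, had 71.1, 70.2 and 77.4 FPKM at stage 2, against 554, 535 and 522 FPKM at stage 1, a log2 fold change of -2.87. A lectin-related protein gene (orange1.1t05126), for a sugar-binding protein, had 61.7, 55.3 and 62.7 FPKM at stage 2, against 1026, 1015 and 1006 FPKM at stage 1, a log2 fold change of -4.06. Replicates within each stage differed by far less than the stages. Of 10 tested miraculin and Kunitz-type genes, 3 fell and 0 rose, with a median of -0.60; the third fall, the trypsin inhibitor-like gene Cs9g15430 (-1.06), was at -0.99 without stage 2 replicate 2. The summed level of the list was 32814 to 32932 FPKM at stage 2 and 42984 to 44162 FPKM at stage 1.

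Among chitinases, glucanases and pathogenesis-related proteins, 5 of 53 tested genes rose and 9 fell. The risers included an acidic chitinase (Cs7g06170, 2.32), a glucanase (Cs8g14950, 1.55) and a thaumatin-like protein (Cs3g26240, 1.53), and the falls included the defence regulator PTI5-like (Cs2g05280, -1.73), the glucanase Cs2g20640 (-1.44) and chitinase-like protein 2 (Cs9g02520, -1.40). Lectin-domain and wall-associated receptor kinases gave 3 rises and 1 fall among 59, shares close to the background, although the median was 0.32. The wall-associated kinase-like gene orange1.1t01937 rose by 2.03, with 13.97, 14.6 and 17.6 FPKM at stage 2, against 2.66, 3.40 and 2.91 FPKM at stage 1, and the lectin receptor kinase Cs6g06700 rose by 1.89. The other 2 calls, FERONIA-like Cs6g16450 (1.04) and Cs6g07470 (-1.02), lay at the threshold. The FERONIA-like gene was at 0.94 without stage 2 replicate 3 and at 0.98 without stage 1 replicate 2, as well as at 0.99 after quantile normalization and 0.97 after median scaling, Cs6g07470 was at -0.89 without stage 2 replicate 1 and at -0.99 without stage 1 replicate 3, and neither was then called; leaving out other single libraries gave up to 5 rises in the list.

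Terpene synthases, which make volatile and resin compounds, changed in both directions, with 6 of 27 tested genes higher and 6 lower (22.2% each). The rises were led by (E)-beta-farnesene synthase-like genes: Cs4g11320 rose by 1.77, its neighbour by identifier Cs4g11330 by 1.76 and orange1.1t03302 by 1.52. A germacrene D synthase-like gene (Cs4g12110) fell by 2.09 and the gamma-terpinene synthases orange1.1t05292 and Cs7g17640, which make a monoterpene of lemon peel oil, by 2.00 and 1.50. KEGG entries divided likewise: K12929 and K14181, whose 10 called genes are the same, had 7 higher and 3 lower among 15 with a median of 0.76, and K07385 and K12467 had the same 5 genes lower and 0 higher among 15 with a median of -0.82. The family has many close copies, some with neighbouring identifiers, between which reads may be split.

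Phenylpropanoid and flavonoid genes gave 11 falls (15.9%) and 4 rises among 69. Chalcone synthase 1-like (Cs9g11190), the entry enzyme of the flavonoid pathway, fell by 1.79, with 0.38, 1.14 and 0.41 FPKM at stage 2, against 5.09, 3.99 and 4.66 FPKM at stage 1. Dihydroflavonol-4-reductase (Cs3g25090), a later step towards anthocyanins, was listed at 0 in all 3 stage 2 libraries and at 3.00, 1.25 and 1.90 FPKM at stage 1. An anthocyanidin glucosyltransferase-like gene (Cs9g18820) fell by 2.17. The flavonoid 3'-monooxygenase-like genes Cs2g08630 and orange1.1t03164, which hydroxylate flavonoids, rose by 2.05 and 1.49.

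In the cuticle, wax and lipid transfer list, 9 of 46 tested genes fell (19.6%) and 0 rose, with a median of -0.32. The lipid-transfer protein DIR1-like (orange1.1t01576) had 22.4, 22.7 and 11.4 FPKM at stage 2, against 175, 166 and 143 FPKM at stage 1, a log2 fold change of -3.09 (SE 0.20, adjusted p = 4.2e-07). Another lipid-transfer protein (orange1.1t01623) fell by 2.37, and 3-ketoacyl-CoA synthase 19-like (Cs9g07970), of very-long-chain fatty acid synthesis, by 1.64. Among peroxidases, ascorbate oxidases and glutathione transferases, 7 of 66 rose and 5 fell. The largest rises were 3 glutathione transferases, which detoxify electrophiles: Cs9g10410 rose by 1.52, with 113, 94.0 and 103 FPKM at stage 2, against 38.2, 33.4 and 34.7 FPKM at stage 1, its neighbour by identifier Cs9g10400 by 1.46 and Cs7g15770 by 1.42. The largest falls were an ascorbate oxidase homolog (Cs2g02940, -1.70) and peroxidase 15-like genes orange1.1t02045 (-1.64) and orange1.1t02040 (-1.5). By KEGG, the ascorbate oxidase entry K00423 had 5 of 15 tested genes lower and 0 higher.

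Signalling and transport lists gave few calls. Calcineurin B-like protein 7-like (orange1.1t02723), a calcium sensor that works with protein kinases, had 58.7, 66.5 and 83.2 FPKM at stage 2, against 6.43, 5.26 and 4.47 FPKM at stage 1, a log2 fold change of 3.46 (SE 0.19, adjusted p = 1.1e-07). It was 1 of 3 calls among 48 tested calcium genes, with 4.17% higher and 2.08% lower, near the background. The others called were calcium-dependent protein kinase 33-like (Cs4g10570, 1.17) and PBP1-like (Cs2g07090, -1.40). Of 49 tested transporters of nitrate, amino acids and phosphate, 2 rose (4.08%) and 5 fell (10.2%). The rises, a share near the background, were the cationic amino acid transporter Cs2g11770 (1.52) and phosphate transporter 1-4-like (Cs9g10530, 1.25). The falls were led by the peptide or nitrate transporter Cs3g01590 (-1.61), the high affinity nitrate transporter Cs2g27650 (-1.29) and orange1.1t02017 (-1.26).

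Transcription factor families were changed in a minority of members. MYB factors gave 2 rises (MYB108-like Cs2g12700, 1.27, and Myb308-like Cs8g02740, 1.14) and 8 falls (16.0%) among 50, the largest for Myb330-like Cs5g33880 (-2.56), Myb4-like Cs4g06090 (-1.80) and Cs6g17570 (-1.47). Without stage 2 replicate 2, 5 MYB genes fell. Basic helix-loop-helix factors gave 0 rises and 4 falls among 30, led by bHLH92-like Cs9g08460 (-1.59), bHLH96-like Cs3g13290 (-1.44) and bHLH111-like Cs3g02100 (-1.36). NAC factors gave 0 rises and 2 falls among 31 (6.45% lower), near the background. The falls were the NAC7-like neighbours Cs5g04690 (-1.14) and Cs5g04680 (-1.03). Cs5g04680 was at -0.98 without stage 2 replicate 2 or 3 and at -0.96 without stage 1 replicate 2, and was then not called. WRKY factors gave 1 rise and 2 falls among 27, near the background: WRKY13-like (Cs1g04180) had -1.19, WRKY53-like (orange1.1t00472) had -1.01, and WRKY23-like (Cs9g03310) had 1.2, with 13.3, 18.7 and 8.71 FPKM at stage 2, against 3.76, 3.84 and 8.72 FPKM at stage 1, so that its libraries overlapped. Leaving out stage 2 replicate 2 put WRKY23-like at 0.96 and WRKY13-like at -0.69, leaving out stage 1 replicate 2 put WRKY13-like at -1.07, and leaving out stage 2 replicate 1 or stage 1 replicate 1 put WRKY53-like at -0.92 or -1.0; each call was lost there.

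The PEBP family, which holds FT and its relatives, gave 2 falls and 0 rises among 4 tested genes. MOTHER OF FT AND TFL1 (MFT, Cs2g06960) had 83.6, 83.3 and 69.7 FPKM at stage 2, against 165, 154 and 164 FPKM at stage 1, a log2 fold change of -1.03 (SE 0.08, adjusted p = 2.1e-06); without stage 2 replicate 3 it was -0.94 and under the fold threshold. The CEN-like gene Cs8g15080, of the class that holds floral repressors, had 1.01, 0 and 0 FPKM at stage 2, against 3.62, 1.96 and 2.52 FPKM at stage 1, a log2 fold change of -1.53 (adjusted p = 0.0016). FT (Cs6g05140) was at 1.84, 1.1 and 1.2 FPKM at stage 2 and at 0.55, 1.44 and 1.09 FPKM at stage 1. Its libraries overlapped, and the log2 fold change was 0.24 (SE 0.29, adjusted p = 0.54), so that a difference was not detectable at this level in buds. A HEADING DATE 3A-like gene (Cs6g05515) had a log2 fold change of 0.26 (adjusted p = 0.70), and 2 further members did not pass the filter on low values.

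Squamosa promoter-binding-like (SPL) factors, which promote the adult and flowering phase, gave 1 fall and 0 rises among 7 tested genes, with a median of -0.03. The study reports SPL6, SPL8, SPL9 and SPL13 among genes changed in these same data. These 4 genes, described below, are therefore not a free sample of the family. SPL9 (orange1.1t02265) had 18.01, 15.1 and 16.6 FPKM at stage 2, against 46.2, 50.05 and 53.2 FPKM at stage 1, a log2 fold change of -1.53 (SE 0.09, adjusted p = 2.2e-07), and was the only call among the 7 tested genes of the list. SPL8 (Cs1g03630), named so by the study and matched to a protein without a functional name, fell by 1.16, with 36.0, 35.9 and 38.5 FPKM at stage 2, against 83.4, 86.7 and 80.1 FPKM at stage 1. SPL6 (Cs5g12260, matched to SPL12-like) and SPL13 (orange1.1t02597, with no functional match), both named by the study, had log2 fold changes of -0.99 each (adjusted p = 2.2e-06 and 1.8e-05), just under the fold threshold, with no overlap between the stages. Scaling each library by its median put both past the threshold at -1.06, as did leaving out stage 2 replicate 3 (-1.07) or stage 1 replicate 2 (-1.02) for SPL6, and stage 2 replicate 1 (-1.07), stage 1 replicate 1 (-1.0) or stage 1 replicate 3 (-1.06) for SPL13.

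MADS-box factors gave 2 rises and 1 fall among 22, a share near the background in the lower direction. The FLOWERING LOCUS C-like gene (Cs5g10810), of a family of floral repressors, had 92.8, 88.9 and 85.4 FPKM at stage 2, against 32.6, 33.3 and 33.4 FPKM at stage 1, a log2 fold change of 1.40 (SE 0.06, adjusted p = 1.3e-08). Its KEGG entry (K08910) is that of the chlorophyll a-b binding protein with the neighbouring identifier, Cs5g10800, which rose by 1.89; whether both share reads was not tested. AGL16-like (Cs3g16896) rose by 1.21 at 1.30 to 2.43 FPKM, against 0.16 to 0.32 FPKM at stage 1. DEFICIENS-like (Cs3g25600), a petal and stamen identity gene, had 3.33, 2.14 and 1.50 FPKM at stage 2, against 8.04, 5.93 and 3.49 FPKM at stage 1, a log2 fold change of -1.02 (adjusted p = 0.011). It lost its call after quantile normalization (-0.97) and without stage 2 replicate 2 (-0.99), stage 2 replicate 3 (-0.83), stage 1 replicate 1 (-0.78) or stage 1 replicate 2 (-0.98).

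Markers of the tissues a bud holds were found at differing levels. SHOOT MERISTEMLESS-like (Cs2g02590), which keeps the meristem undifferentiated, had 64.7, 73.2 and 73.6 FPKM at stage 2, against 61.9, 52.2 and 57.9 FPKM at stage 1, and was not called (log2 fold change 0.29). The 8 tested meristem markers gave 0 calls, with a summed level of 235 to 251 FPKM at stage 2 and 187 to 198 FPKM at stage 1. A WUSCHEL-like gene (Cs1g25270), of the stem cell niche, was at 0, 0 and 0.18 FPKM at stage 2 and at 1.14, 0.80 and 1.13 FPKM at stage 1 (log2 fold change -0.93, not called). Floral organ markers were low throughout, summing to 12.2 to 15.4 FPKM at stage 2 and 16.6 to 21.3 FPKM at stage 1, with DEFICIENS-like the only call among 4. Vascular markers gave 1 rise (4.35%) and 2 falls (8.7%) among 23. The xylem cysteine proteinases orange1.1t02111 and orange1.1t05099 had 1.14 and -1.54, and PP2-B12-like (Cs2g10920) had -1.03. Without stage 2 replicate 3 orange1.1t02111 was at 0.98 and Cs2g10920 at -0.79, neither called, and Cs2g10920 was also lost without stage 2 replicate 2 (-0.99), stage 1 replicate 2 (-0.96) or stage 1 replicate 3 (-0.95). The summed level of the list was 227 to 248 FPKM at stage 2 and 204 to 217 FPKM at stage 1. The part of tissue makeup in the changes above was not tested beyond these values.

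Genes without a functional match were among the largest changes. Best matches carried no functional name for 300 of the 564 genes called higher (53.2%) and for 435 of the 827 called lower (52.6%), shares close to that of all tested genes (55.1%). The gene orange1.1t01663 had the largest rise of all, with 256, 215 and 217 FPKM at stage 2, against 6.11, 5.37 and 6.03 FPKM at stage 1, a log2 fold change of 5.07 (SE 0.10, adjusted p = 5.7e-11). Cs8g19730 had 81.3, 69.0 and 80.9 FPKM at stage 2, against 3.12, 2.72 and 3.20 FPKM at stage 1, a log2 fold change of 4.28. Cs7g03390 had 23.0, 20.6 and 22.1 FPKM at stage 2, against 0.52, 2.03 and 0.70 FPKM at stage 1, a log2 fold change of 3.52. These 3 genes were named under a rule that required the stages not to overlap, so their separation is not a separate result. Other large rises were an ankyrin repeat protein gene (orange1.1t04846, 3.73), Cs9g17050 (3.57), orange1.1t02220 (3.54), which carries the KEGG entry of thioredoxins (K03671), and Cs8g18860 (3.46), which carries K14491, an entry shared with ARR2-like regulators.

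The uncharacterized gene Cs3g03350 was listed at 0 in all 3 stage 2 libraries, against 24.2, 13.7 and 22.5 FPKM at stage 1. Cs5g31330 was at 0.12, 0.12 and 0 FPKM at stage 2 and at 16.6, 15.1 and 15.4 FPKM at stage 1, a log2 fold change of -3.95. The gene orange1.1t01448 had 8.77, 4.42 and 19.6 FPKM at stage 2, against 154, 165 and 190 FPKM at stage 1, a log2 fold change of -4.05. The rule that named these 3 genes required the stages not to overlap, so their separation is not a separate result either. Cs7g03630 fell by 3.67, and Cs9g01630, which carries the KEGG entry of polygalacturonases (K01184), fell by 3.30.

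**Figure D4:**
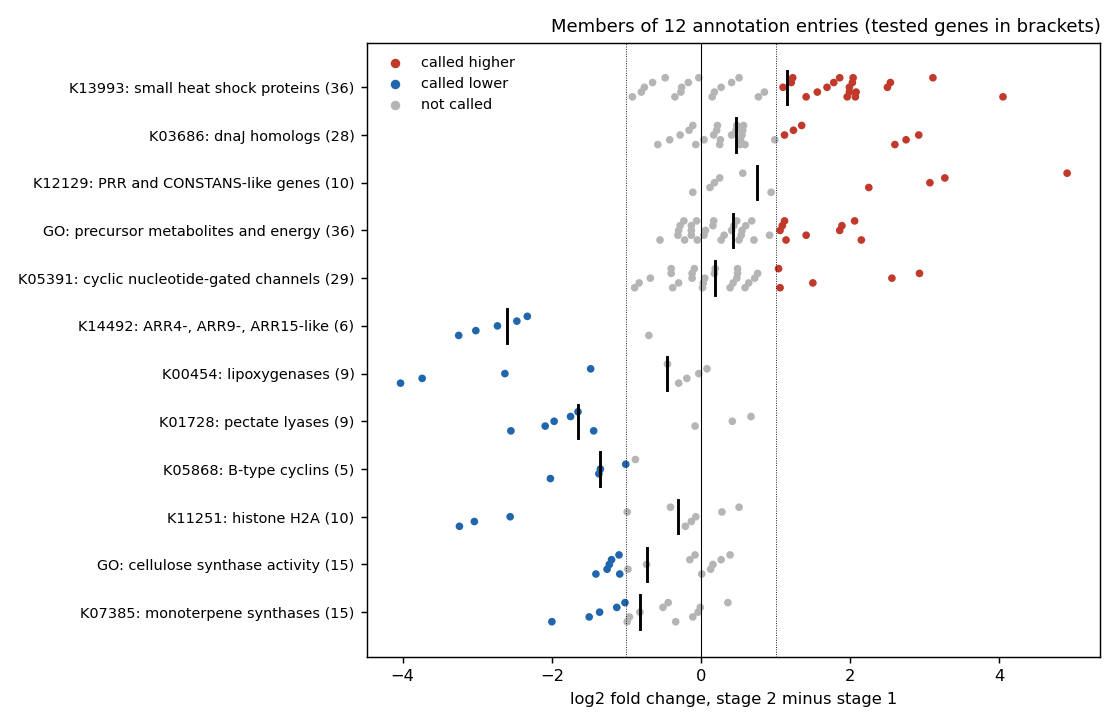
Log2 fold change (stage 2 minus stage 1) of every tested member of 12 KEGG and GO entries. The smaller entries and K05391 were chosen after their values were seen. Each point is a gene, red where called higher, blue where called lower and grey where not called. The black bar is the median of the entry, and dotted lines mark the fold threshold of 1. The small heat shock entry K13993 has its median (1.16) past the threshold on the right, and the type-A response regulators K14492 (median -2.60) lie farthest to the left.

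Across all 46 function lists, 1738 genes were listed and 1309 of them tested, and they held 230 of the 1391 called genes (16.5%). More members were called lower than higher in 26 lists, more higher than lower in 9, and the counts were equal in 11. Further KEGG and GO entries, some of whose genes are also in the lists, were as follows. By share called higher, K14488, held by auxin-induced genes, had 5 of 17 tested genes higher and 2 lower, but its median was -0.18. K13030 had 5 of 25 higher and 1 lower with a median of 0.41. K05391, an entry of cyclic nucleotide-gated ion channels, had 5 of 29 higher and 0 lower with a median of 0.19, and K11251, of histone H2A, had 3 of 10 lower and 0 higher with a median of -0.31; both were chosen after their values were seen. In the lower direction, K10576 had 6 of 19 tested genes lower and 0 higher, K15638 had 4 of 15 lower and 0 higher, and fatty acid biosynthetic process had 4 of 15 lower and 1 higher. The falls of fatty acid biosynthetic process include orange1.1t03769, orange1.1t03770 and orange1.1t03774, which carry the lipoxygenase entry K00454 met above among the jasmonate genes. The entries were picked for their shares, so that these counts describe them and test nothing.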

How the data were processed

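Buds of lemon were sequenced at 3 stages with 3 biological replicates each. The authors filtered reads with the FASTX-Toolkit, mapped them to the sweet orange genome with BWA and deposited 1 table of FPKM per gene and library, with Blast, GO and KEGG annotation; the sources used here name neither program versions nor the counting step. The authors' own test was NOISeq, and its results were not used for the calls. They did bear on which genes were named, since the genes that the study gives with an identifier are among those it reports as changed.

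From the deposited FPKM, log2(FPKM + 1) was computed for genes of at least 1 FPKM in at least 3 of the 9 libraries. limma 3.58.1 (R 4.3.3) with its trend option fitted 1 mean per stage over all 9 libraries, and p-values were adjusted by the Benjamini-Hochberg method over all 17729 genes tested. The pseudocount of 1 shrinks fold changes of low genes. Counts per list were made in Python 3.11.15 with pandas 2.3.3, and figures with matplotlib 3.10.9. Function lists came from words in the best protein match; they and their members were chosen with earlier results of these data known. Named were the 12 largest rises and the 12 largest falls whose stages do not overlap, up to 3 rises and 3 falls per list, the PEBP and clock genes, and genes that the study gives with an identifier; others are said to be chosen after their values were seen. Same-numbered replicates of the stages deviated with correlations of -0.0169, 0.023 and -0.0156. No pairing by number was seen in these values, which cannot exclude that the same groups of trees were sampled at both stages. Other normalizations, filters, pseudocounts, thresholds, a replicate block, a NOISeq-style probability and leaving out each library were tried.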

Additional observations from a re-analysis of the deposited data

How the results depend on the processing

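The counts of 564 genes higher and 827 lower stayed within 1.5 times under changes of normalization, filter, pseudocount and p threshold, with extremes of 460 and 736 higher and 558 and 1086 lower. Without a fold threshold the counts were 3761 and 3039. The NOISeq-style probability gave 455 higher and 487 lower genes, of which 409 and 463 were among those called; the cause of the lower count was not tested. Scaling by library medians moved the median of all tested genes by -0.07 and gave 479 higher and 928 lower. Leaving out 1 library gave 564 to 583 higher and 813 to 840 lower genes, with 504 to 562 and 717 to 824 shared. With the replicate block the counts were 568 and 822. Whether equal replicate numbers stand for the same group of trees is not stated in the sources used here. Of 149 called named genes, 102 kept their call under every alternative that tested them, 47 lost it under at least 1 (30 of them only under the NOISeq-style probability), and 0 reversed. Low values limit the calls on cyclins, CEN-like and FT.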

Other observations

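Neighbouring identifiers sometimes changed together although their protein matches have nothing in common, as with the FLOWERING LOCUS C-like gene above. Cs4g05770, matched to an NSUN5-like methyltransferase and chosen after its values were seen, had 223, 207 and 161 FPKM at stage 2, against 28.3, 26.2 and 24.9 FPKM at stage 1, a log2 fold change of 2.84; the next identifier, the small heat shock protein Cs4g05780, had 3.11. Cs9g14680, matched to a Golgi complex subunit, carries the small heat shock entry K13993 and had a log2 fold change of 1.21, next to the heat shock protein Cs9g14690 with 2.07. Whether reads or gene models are shared in these pairs was not tested.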
